A study of Mus musculus with 4 samples.

Results

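The genes described here encode the enzymes of cholesterol and fatty acid synthesis, together with the sterol sensors and transcription factors that set their expression. They are 30 mouse genes chosen by symbol from the pathway, in pathway order, out of 31600 features in the deposited table. All 30 were in the table and all 30 passed the expression filter, a mean of at least 0.5 FPKM (fragments scaled to transcript length and library depth), among 23138 features that did. The series measured ribosomal-RNA-depleted total RNA of mouse spermatogonial stem cells, the germline cells of the testis that renew themselves and give rise to sperm. Its 2 groups are control (2 libraries, genotype tag WT) and differentiation (2 libraries, genotype tag Differentiation), and both carry the cell type label of spermatogonial stem cells. None of the sources used here gives the agent that started differentiation, its duration, the strain and age of the mice, or whether the cells were cultured. Nor do the labels tie each library to its own culture or animal, so each p-value below measures the spread between these libraries, which may be technical.

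Cholesterol is built from acetyl-CoA through mevalonate, isoprenoid diphosphates, squalene and lanosterol, and fatty acids are built from the same acetyl-CoA through malonyl-CoA. The SREBP transcription factors, made as membrane proteins of the endoplasmic reticulum, switch on genes of both routes after Scap escorts them to the Golgi, and the Insig proteins hold Scap back when sterols are plentiful. In the testis, sterols are membrane components of germ cells and the precursors of androgens made by Leydig cells.

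Most of these genes were lower in differentiation. By limma's moderated test on log2(FPKM + 1), with Benjamini-Hochberg adjustment over all features tested and a threshold of 0.05, 19 of 30 fell, 4 rose and 7 were not past the threshold. Among all features tested, 27.0% were lower, 29.6% were higher and 56.6% were called in either direction by the same rule, and among the protein-coding features 34.0% were lower and 32.5% higher. The median log2 fold change (differentiation minus control, on the log2(FPKM + 1) scale, which understates changes of low genes) was -0.38 over the 30 genes and 0.01 over all features tested. In 23 genes both differentiation libraries lay below both control libraries, in 6 both lay above, and in 1, Pmvk, the groups overlapped. Of all features tested, 39.1% had such non-overlapping lower values and 40.9% non-overlapping higher values. In bulk RNA, fewer cells of a type and less RNA per cell cannot be told apart, and this holds for every gene below.

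**Figure D1:**
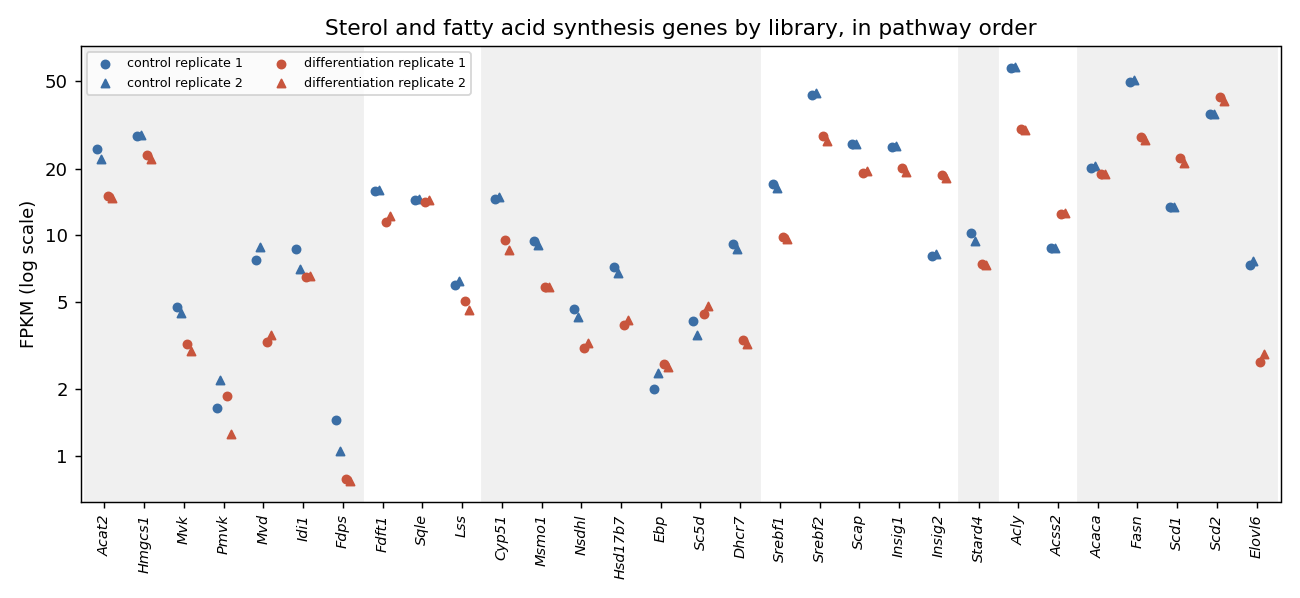
FPKM of each of the 30 genes (x axis, in pathway order) in each library, on a log scale (y axis), with control and differentiation libraries in different colours. Dhcr7, Mvd and Elovl6 show the widest gaps downward, Insig2 and Scd1 the clearest gaps upward, and the Sqle points nearly coincide.

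**Figure D2:**
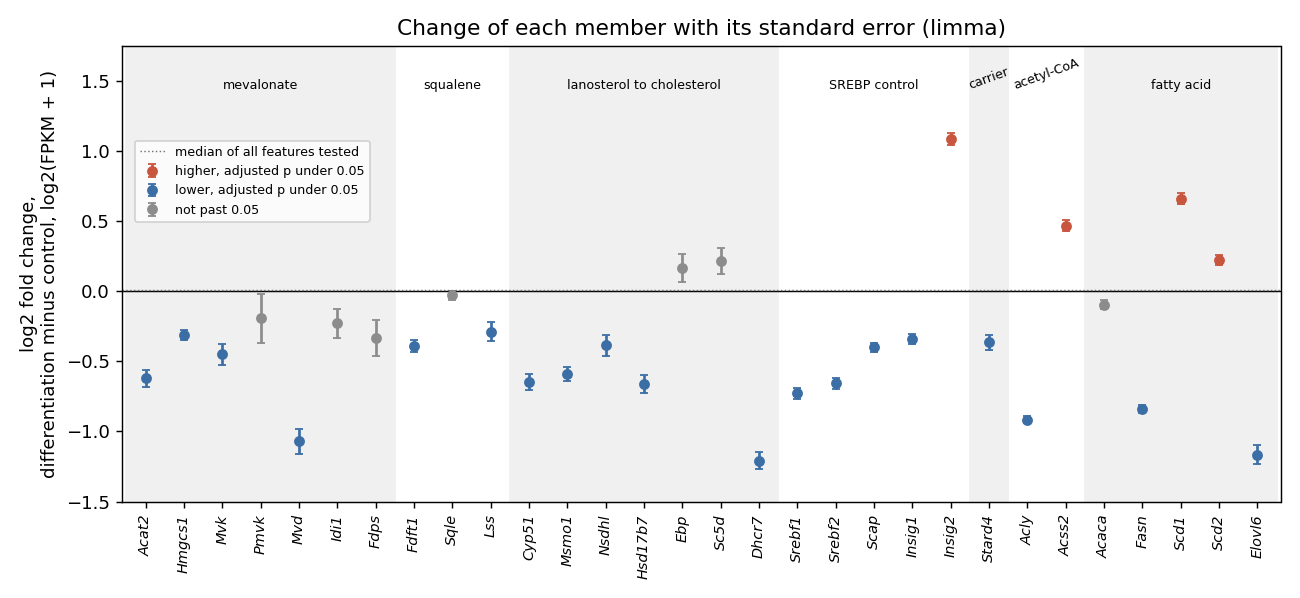
The log2 fold change of each gene with its standard error from limma (y axis, log2(FPKM + 1) scale), grouped by role along the x axis and coloured by call at an adjusted p of 0.05. Of the 23 coloured points, 19 lie below 0 and 4, namely Insig2, Acss2, Scd1 and Scd2, lie above it.

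SREBP is known to bind near the start of many of these genes, together with NF-Y and Sp1, so the promoters of a sterol enzyme, a fatty acid enzyme and a gene that moved the other way are printed here for comparison. RefSeq promoter windows (GRCm38.p6, 250 bases before to 50 after the start) were matched for 24 of 30 genes, and Fdps, Fdft1, Sqle, Stard4, Scd1 and Scd2 had none in the table used. The sequences are the 150 bases just before the most upstream RefSeq start of each gene, read 5′ to 3′ on the gene's own strand. Capitals mark exact matches, on either strand, of the sterol regulatory element TCACNCCAC, the NF-Y box CCAAT and the Sp1 box GGGCGG, so a match on the other strand is printed as its reverse complement. Hmgcs1 lies at chr13:119690201-119690350 on the plus strand. The other windows are on the minus strand, Mvd at chr8:122443423-122443572, Fasn at chr11:120824548-120824697 and Insig2 at chr1:121332590-121332739.
Hmgcs1: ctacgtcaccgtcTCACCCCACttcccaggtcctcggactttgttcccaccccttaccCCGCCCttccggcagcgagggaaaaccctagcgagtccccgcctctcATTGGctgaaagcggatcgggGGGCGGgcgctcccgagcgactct
Mvd: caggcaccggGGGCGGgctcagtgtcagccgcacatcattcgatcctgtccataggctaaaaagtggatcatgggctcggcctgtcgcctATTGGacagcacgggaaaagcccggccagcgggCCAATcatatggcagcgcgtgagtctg
Fasn: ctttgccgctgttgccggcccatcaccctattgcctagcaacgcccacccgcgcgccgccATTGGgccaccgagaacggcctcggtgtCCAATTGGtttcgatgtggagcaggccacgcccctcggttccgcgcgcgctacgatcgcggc
Insig2: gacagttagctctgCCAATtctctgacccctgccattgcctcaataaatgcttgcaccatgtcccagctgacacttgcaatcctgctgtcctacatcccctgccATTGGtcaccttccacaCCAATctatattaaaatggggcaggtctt
The first of these holds a sterol regulatory element, 2 Sp1 boxes and an inverted NF-Y box, whereas the Mvd stretch holds 2 NF-Y boxes, 1 on each strand, and an Sp1 box. In Fasn the run CCAATTGG is 2 overlapping NF-Y matches, 1 on each strand. Insig2 holds 3 NF-Y boxes and no Sp1 box within this stretch, which lies before its most upstream start. Its windows at starts further downstream, chr1:121327975-121328274 and chr1:121327629-121327928, each hold an Sp1 box and no NF-Y box.

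Over the whole windows, the NF-Y box was found in 20 of 24 genes (83.3%), against 41.1% of the 27025 genes with a window and 42.8% of the 11078 of them that are protein-coding and were tested. Acat2, Scap, Acaca and Elovl6 lacked it. The Sp1 box was found in 20 of 24 as well, against 38.2% of all genes and 66.3% of the tested coding genes, and Pmvk, Acaca, Fasn and Elovl6 lacked it. For Acaca, annotated at chr11:84129672-84401651 on the plus strand, the most upstream stretch was chr11:84195288-84195437, inside the gene. The sequence before its annotated start was therefore not examined, and both absences hold only for an internal window. The letters TCACNCCAC were found in Hmgcs1 only among the 24, against 1.44% of all genes. An E-box form of the SREBP site, TCACGTGA, was found in 0 of 24, against 1.12% of all genes. Of the 20 genes with an NF-Y box, 14 were called lower and 2 higher, so the box was present in genes of both directions. Among all 30 genes, 19 were lower and 4 higher. Of the genes without the box, Acat2, Scap and Elovl6 were called lower too, and Acaca was not past the threshold. The count with the box therefore does not set these genes apart. These matches describe letters in a short window, and no binding was measured.

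The mevalonate branch, which turns acetyl-CoA into the isoprenoid farnesyl diphosphate, fell in 4 of its 7 genes and rose in 0. Mvd, the decarboxylase that makes isopentenyl diphosphate, had 7.68 and 8.86 FPKM in control and 3.27 and 3.54 in differentiation. Both differentiation values were under the lower control value, and the log2 fold change was -1.07 (SE 0.0894, limma adjusted p = 0.00145). Mvk, which phosphorylates mevalonate, had 4.73 and 4.44 FPKM in control against 3.20 and 2.97 in differentiation, with a log2 fold change of -0.45 and a limma adjusted p of 0.0102. Its call was lost without control 1 (limma adjusted p = 0.0615) and without differentiation 2 (limma adjusted p = 0.0587).

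Hmgcs1, the cytosolic synthase that condenses acetoacetyl-CoA with acetyl-CoA and whose promoter is the first one printed above, was among the more abundant enzymes. It had 28.3 and 28.4 FPKM in control and 23.2 and 22.1 in differentiation, 79.9% of the control mean. The libraries of a group differed far less than the groups did, and the log2 fold change was -0.31 (SE 0.0366, limma adjusted p = 0.00353). An antisense gene, Gm48342, shares 557 of the 4594 exonic bases of Hmgcs1 (12.1%) on the opposite strand and had 16.8 and 16.7 FPKM in control against 13.3 and 12.2 in differentiation. No source used here says whether the authors counted by strand, so reads in the shared stretch cannot be assigned to either gene.

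Acat2, the cytosolic thiolase that makes acetoacetyl-CoA for the pathway, had 24.7 and 22.2 FPKM in control and 15.02 and 14.7 in differentiation. The groups did not overlap, and the log2 fold change was -0.62 (SE 0.0607, limma adjusted p = 0.00216). Its neighbour Acat3, a near copy of the same thiolase, went the other way, with 21.3 and 20.4 FPKM in control and 40.7 and 42.4 in differentiation (log2 fold change 0.96, limma adjusted p = 2.71e-04). The ratio of Acat3 to Acat2 was 0.864 and 0.921 in control and 2.71 and 2.89 in differentiation. Their annotated transcripts share a stretch of 1477 bases that is 97.7% identical, so the split of reads between the copies, and with it both values, is uncertain. Acat2 transcripts also hold a stretch of 445 bases that is 98.7% identical to the reverse complement of transcripts of Tcp1, a chaperonin gene. Tcp1 had 59.1 and 58.5 FPKM in control and 118 and 119 in differentiation. The mitochondrial thiolase gene Acat1, whose product serves ketone metabolism, fell as well (7.86 and 7.53 against 6.09 and 6.44 FPKM, limma adjusted p = 0.0205).

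The remaining mevalonate genes did not pass the threshold, but with limma-voom on recovered fragments Idi1 (adjusted p = 0.0210) and Fdps (0.00989) did, which made 6 of 7 lower. Idi1, which interconverts the isopentenyl isomers, had 8.62 and 7.005 FPKM in control and 6.44 and 6.56 in differentiation. The differentiation values were both below the control values but close to the lower one, and the log2 fold change was -0.23 (SE 0.104, limma adjusted p = 0.133, and 0.0314 without control 2). Fdps, the farnesyl diphosphate synthase, had 1.45 and 1.05 FPKM in control and 0.789 and 0.770 in differentiation, from 59 to 119 recovered fragments per library (limma adjusted p = 0.0925). Its level is uncertain because 4 processed pseudogenes and Gm43738, a protein-coding gene model on the same strand that covers 26.7% of its exonic length, share near-identical sequence with it. Pmvk, the kinase between Mvk and Mvd, had 1.65 and 2.21 FPKM in control against 1.87 and 1.26 in differentiation, with 44 to 78 fragments per library (limma adjusted p = 0.400). It was the only one of the 30 genes in which the groups overlapped, and its libraries were also the most spread within the differentiation group, by 39.0% of their mean.

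From farnesyl diphosphate to lanosterol, Fdft1 and Lss fell and Sqle did not pass the threshold. Fdft1, the squalene synthase, had 15.8 and 15.96 FPKM in control and 11.5 and 12.3 in differentiation (log2 fold change -0.39, SE 0.0452, limma adjusted p = 0.00340). The gap between groups was several times the gap within either. Fdft1 shares 774 of its 4227 exonic bases (18.3%) with the protease gene Ctsb on the opposite strand, which fell by a similar amount (log2 fold change -0.41, limma adjusted p = 0.00217).

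Sqle, the epoxidase that is a rate-limiting step of sterol synthesis, had 14.5 and 14.6 FPKM in control and 14.1 and 14.4 in differentiation. The values of the 4 libraries almost touched, and the log2 fold change was -0.03 (SE 0.0349, limma adjusted p = 0.502). With quantile normalization, which moved the median of all features by -0.10, Sqle passed as lower (log2 fold change -0.15, limma adjusted p = 0.0233). The SE without that scaling was smaller than that of Cyp51 (0.0586), a called gene of similar control level. Lss, which closes the ring to give lanosterol, had 5.96 and 6.17 FPKM in control and 5.01 and 4.56 in differentiation (log2 fold change -0.29, limma adjusted p = 0.0259). Its call was lost when any 1 library was left out, with limma adjusted p from 0.0515 to 0.114, which leaves Fdft1 as the gene of this step called in every such fit.

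The enzymes that convert lanosterol to cholesterol fell in 5 of 7 genes, and none rose. Dhcr7, the reductase of the last step, was among the genes with the most negative log2 fold changes. It had 9.16 and 8.62 FPKM in control and 3.35 and 3.21 in differentiation, means of 8.89 ± 0.385 and 3.28 ± 0.0982 (SD, n = 2 each). Differentiation was thus at 36.9% of control, and the log2 fold change was -1.21 (SE 0.0629, limma adjusted p = 4.58e-04). Dhcr7 lies at chr7:143823145-143848410 on the plus strand (GRCm38).

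The demethylation steps before it moved the same way. Cyp51, the lanosterol demethylase, had 14.6 and 14.9 FPKM in control and 9.48 and 8.59 in differentiation (log2 fold change -0.65, limma adjusted p = 0.00179). Msmo1, the sterol C4-methyl oxidase, had 9.45 and 9.04 FPKM in control and 5.83 and 5.80 in differentiation (log2 fold change -0.59, limma adjusted p = 0.00153). In both genes the lower control library was clearly above the higher differentiation library. Hsd17b7, the ketoreductase of C4 demethylation, had 7.16 and 6.72 against 3.92 and 4.11 FPKM (log2 fold change -0.66, limma adjusted p = 0.00215).

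Nsdhl, the C4 decarboxylase, is on chromosome X and had 4.61 and 4.26 FPKM in control and 3.08 and 3.24 in differentiation (log2 fold change -0.39, limma adjusted p = 0.0157). Its groups did not overlap, but its call was lost without any 1 of the libraries (limma adjusted p from 0.0501 to 0.0847). Of the 764 features tested on chromosome X, 45.5% were lower and 12.0% higher.

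Ebp and Sc5d, which act between C4 demethylation and the final reduction, had positive log2 fold changes that did not pass the threshold. Ebp, the isomerase and the other X-linked gene of the pathway, had 2.00 and 2.37 FPKM in control and 2.61 and 2.53 in differentiation (log2 fold change 0.17, limma adjusted p = 0.228). Sc5d, the desaturase, had 4.10 and 3.53 FPKM in control and 4.37 and 4.78 in differentiation (log2 fold change 0.21, limma adjusted p = 0.124). In both, the groups were apart but the control libraries differed by 16.8% and 14.8% of their mean. With limma-voom on recovered fragments Sc5d passed as higher (adjusted p = 0.0162).

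The 17 cholesterol enzyme genes from Acat2 to Dhcr7 fell in 11 and rose in 0, with a median log2 fold change of -0.39. Their summed level was 164 and 160 FPKM in control and 117 and 115 in differentiation. The sums of the mevalonate enzymes (77.1 and 74.2 against 53.8 and 51.9 FPKM) and of the lanosterol-to-cholesterol enzymes (51.0 and 49.4 against 32.6 and 32.3) parted more than those of the squalene-to-lanosterol enzymes (36.3 and 36.8 against 30.6 and 31.2).

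Among the genes that control the pathway, both SREBP genes, their escort and one of the retention factors fell, while the other retention factor rose. Srebf2, whose product mainly drives sterol genes, had 43.1 and 44.3 FPKM in control and 28.2 and 26.6 in differentiation (log2 fold change -0.66, SE 0.0397, limma adjusted p = 6.46e-04). Srebf1, whose product mainly drives fatty acid genes, had 17.1 and 16.4 FPKM in control and 9.80 and 9.64 in differentiation (log2 fold change -0.73, SE 0.0405, limma adjusted p = 5.27e-04). The pair kept close proportions: the ratio of Srebf1 to Srebf2 was 0.396 and 0.370 in control and 0.348 and 0.362 in differentiation. Scap, the escort, had 25.9 and 25.8 FPKM in control and 19.2 and 19.5 in differentiation (log2 fold change -0.40, limma adjusted p = 0.00107). It shares 13.2% of its exonic bases with the gene model 5830462I19Rik on the opposite strand, which fell by a similar amount (log2 fold change -0.34).

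Insig1 and Insig2 encode closely related retention proteins, and of these Insig1 is the better known SREBP target. Insig1 had 25.2 and 25.3 FPKM in control and 20.1 and 19.3 in differentiation (log2 fold change -0.34, SE 0.0351, limma adjusted p = 0.00246). Insig2 had 8.08 and 8.25 FPKM in control and 18.8 and 18.1 in differentiation, 226% of the control mean. It had the highest log2 fold change of the 30 genes, 1.09 (SE 0.0404, limma adjusted p = 2.21e-04), and lies at chr1:121304353-121332589 on the minus strand. In FPKM, which is per length, Insig2 stood at 0.321 and 0.327 of Insig1 in control and at 0.934 and 0.941 in differentiation. The sum of both was 33.3 and 33.5 FPKM in control and 38.9 and 37.4 in differentiation.

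Stard4, a soluble carrier that moves cholesterol between membranes, had 10.2 and 9.42 FPKM in control and 7.41 and 7.35 in differentiation (log2 fold change -0.37, limma adjusted p = 0.00728). Both differentiation values were under both control values, and the call was lost without differentiation 2 (limma adjusted p = 0.0527).

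**Figure D3:**
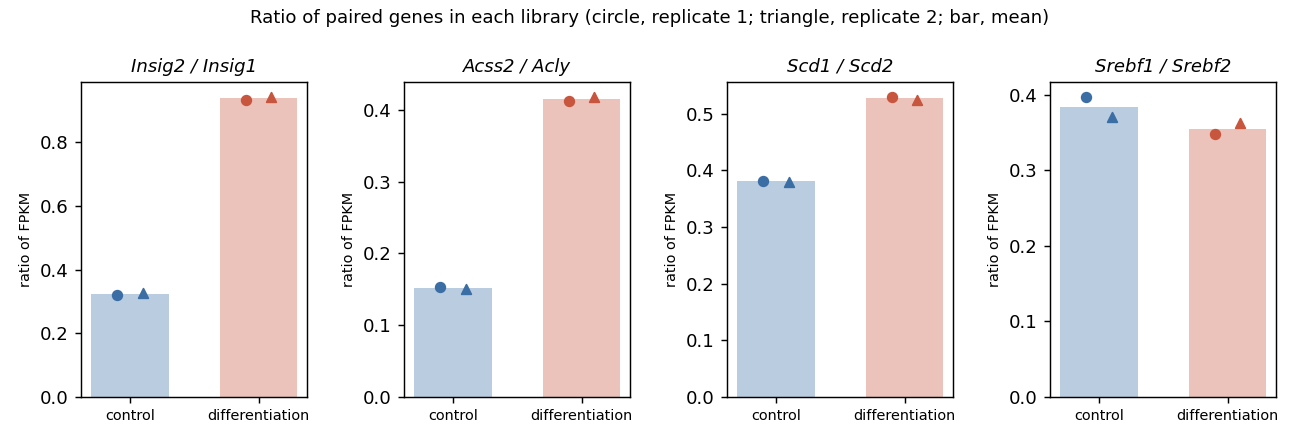
Ratio of FPKM between paired genes (y axis) in each library, with bars for the group mean and points for each library. Insig2 to Insig1 and Acss2 to Acly are higher in both differentiation libraries, Scd1 to Scd2 parts less, and Srebf1 to Srebf2 parts least.

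The enzymes that supply cytosolic acetyl-CoA moved in opposite directions. Acly, which cleaves citrate exported from mitochondria, had 57.3 and 58.1 FPKM in control and 30.2 and 30.03 in differentiation, the highest control level of the 30 genes. Its libraries within a group differed by 1.39% and 0.523% of their mean, and the log2 fold change was -0.92 (SE 0.0261, limma adjusted p = 1.51e-04). Acss2, which makes acetyl-CoA from acetate, had 8.75 and 8.77 FPKM in control and 12.4 and 12.5 in differentiation (log2 fold change 0.47, SE 0.0386, limma adjusted p = 0.00141). The ratio of Acss2 to Acly was 0.153 and 0.151 in control and 0.412 and 0.418 in differentiation. Their sum was 66.0 and 66.9 FPKM in control against 42.6 in both differentiation libraries. An antisense gene that shares 3.30% of the exonic bases of Acss2, Acss2os, also rose (14.4 and 14.1 against 22.2 and 22.3 FPKM, limma adjusted p = 4.79e-04).

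Fatty acid synthesis split by step: synthase and elongase fell, desaturases rose, and the carboxylase did not pass the threshold. Fasn, the synthase that makes palmitate, had 49.6 and 50.4 FPKM in control and 27.8 and 27.1 in differentiation (log2 fold change -0.84, SE 0.0299, limma adjusted p = 2.02e-04). Elovl6, which elongates palmitate to stearate, had 7.30 and 7.61 FPKM in control and 2.66 and 2.89 in differentiation, 37.2% of the control mean. With an SE of 0.0693 and a limma adjusted p of 6.15e-04, its log2 fold change was -1.16, close to that of Dhcr7. Which of these was more negative turned without control 1 (Dhcr7 -1.17, Elovl6 -1.19) and without differentiation 2 (-1.19 and -1.21). Together with Mvd, which was at -0.98 without control 2, these were the 3 of 30 genes called at a log2 fold change of -1 or less, which 4.40% of all features tested reached, and Insig2 alone was called at 1 or more, which 9.70% reached.

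Acaca, the carboxylase that makes malonyl-CoA for Fasn, had 20.2 and 20.5 FPKM in control and 19.01 and 18.96 in differentiation. The differentiation values lay just under the control values, and the log2 fold change was -0.10 (SE 0.0308, limma adjusted p = 0.0576). It passed as lower with quantile normalization (adjusted p = 0.00431), with median centring (0.0112) and with limma-voom (0.00102). The ratio of Acaca to Fasn was 0.407 in both control libraries and 0.683 and 0.700 in differentiation.

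Scd1 and Scd2 encode stearoyl-CoA desaturases that place the double bond in monounsaturated fatty acids, and they are neighbours on chromosome 19. Scd1 had 13.5 and 13.4 FPKM in control and 22.5 and 21.3 in differentiation, 162% of the control mean (log2 fold change 0.66, SE 0.0407, limma adjusted p = 6.66e-04). Scd2 had 35.3 and 35.5 FPKM in control and 42.5 and 40.6 in differentiation (log2 fold change 0.22, SE 0.0341, limma adjusted p = 0.00734). Scd2 was the more abundant in all 4 libraries, and the ratio of Scd1 to Scd2 was 0.382 and 0.379 in control and 0.529 and 0.525 in differentiation. The call of Scd2 was lost with quantile normalization (adjusted p = 0.0894) and when a change beyond 1.2-fold was required, whereas Scd1 kept its call in both. The genes share a stretch of 623 bases that is 95.5% identical, so the split of reads between them is uncertain. The values of Scd1, Scd2 and Srebf2 did not resolve to whole fragments in every library, whereas those of the other genes of the set did. Acat2 and Fdps, which have near-identical copies, are among the latter, and no such copy was found for Srebf2. The reason was not tested.

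For these ratios an exact permutation test of 2 against 2 libraries cannot give a two-sided p under 0.333, so they are given as values only. In the ratio of Srebf1 to Srebf2 both differentiation values were below both control values, and in the other ratios computed they were above. Inverting a ratio reverses its direction, and the order of the genes was a choice, so the number of ratios in each direction shows nothing.

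The authors' deposited table gave a similar set of calls at its own adjusted p under 0.05, with 21 of 30 genes lower and 4 higher. Of its 31600 features, 20.3% were lower and 22.0% higher. Those features include ones below the expression filter, which all 30 genes passed, so these shares are not like the limma shares above. All 23 genes called by limma had the same direction there. The authors' deposited table also called Fdps (adjusted p = 0.0413) and Acaca (adjusted p = 0.0194) as lower.

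A list of genes around the processing, retention and degradation of SREBP pathway proteins, Tmem97 among them, rose in 7 of 11 genes and fell in 1. Over all features tested, 29.6% were higher and 27.0% lower, and these shares stand beside every list below. The median log2 fold change of the SREBP list was 0.32, opposite in sign to the 30 genes. The list mixes proteases that cut SREBP with genes of retention and degradation, so its direction has no single meaning for the pathway. Tmem97, a sterol-responsive membrane protein, had 20.03 and 22.4 FPKM in control and 54.0 and 54.6 in differentiation (log2 fold change 1.32, limma adjusted p = 3.33e-04). Rnf139, a ubiquitin ligase of the endoplasmic reticulum, rose from 10.2 and 10.02 FPKM in control to 20.9 and 21.2 in differentiation (adjusted p = 1.99e-04 by limma). The gene that fell was Mbtps1, the Golgi protease that first cuts SREBP (log2 fold change -0.36).

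Genes of sterol efflux and the sterol-sensing LXR receptors fell in 6 of 10 tested and rose in 1, Cyp46a1, and without differentiation 1 the count lower was 3. Abcg1, a cholesterol exporter, had 7.94 and 7.57 FPKM in control and 3.36 and 3.67 in differentiation (log2 fold change -0.96, limma adjusted p = 9.73e-04). Sterol transport genes fell in 13 of 24 and rose in 6, and the count lower was 8 without control 1, without control 2 or without differentiation 2. Among those that rose, Stard6, a START-domain lipid carrier known for expression in male germ cells, had 1.21 and 1.22 FPKM in control and 16.1 and 17.0 in differentiation (log2 fold change 2.98, limma adjusted p = 9.83e-05). Lipa, the lysosomal lipase that frees cholesterol from its esters, fell (log2 fold change -1.04, limma adjusted p = 0.00149).

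Isoprenoid-branch genes, which use farnesyl diphosphate, were even, with 3 of 12 higher (Fnta, Icmt and Coq2) and 3 lower (Rabggtb, Rabggta and Fntb). With quantile normalization or median centring the count lower was 6. Other elongases and desaturases rose in 3 of 14 tested (Elovl2, Hacd2 and Hacd3) and fell in 4 (Elovl4, Elovl5, Hsd17b12 and Tecr). Elovl2, which elongates very long polyunsaturated fatty acids, had 4.06 and 3.72 FPKM in control and 27.9 and 28.7 in differentiation (log2 fold change 2.58, limma adjusted p = 9.76e-05), opposite in sign to Elovl6.

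**Figure D4:**
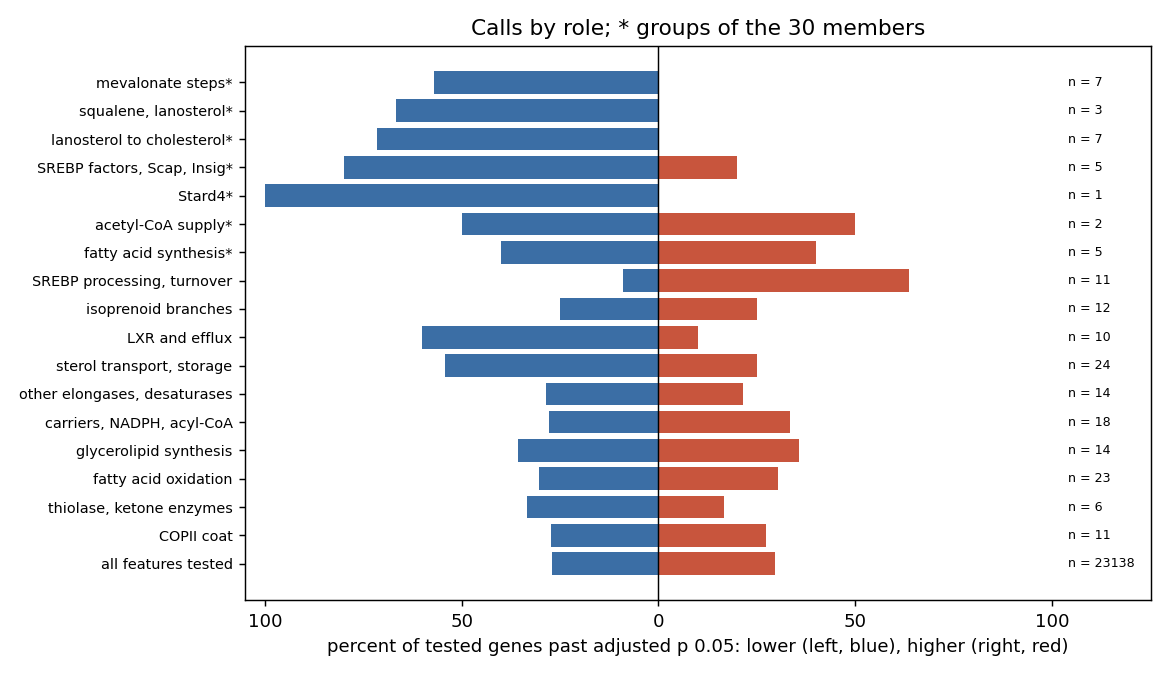
Percent of tested genes called lower (bars to the left) and higher (bars to the right) in differentiation (x axis) for the groups of the 30 genes (marked with an asterisk), the lists around the pathway and all features tested. The sterol enzyme groups show calls in the lower direction only, and the SREBP-processing list shows mostly calls in the higher direction.

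The cell type markers of the libraries also differed between the groups, some lists lower and some higher in differentiation. Spermatocyte markers were higher for 12 of 12, with a summed level of 176 to 180 FPKM in control and 1196 to 1213 in differentiation. Undifferentiated spermatogonia markers were lower for 10 of 14 tested and higher for 1 (160 to 164 against 56.7 to 56.9 FPKM summed). Differentiating spermatogonia markers were lower for 7 of 8 and higher for 0 (457 to 463 against 222 to 224). Of the markers of the labelled cell type, Zbtb16 had 25.4 FPKM in both control libraries and 3.78 and 3.92 in differentiation, and Sall4 had 29.0 and 29.4 against 7.63 and 7.58. Id4, the stem cell marker that rose, had 3.00 and 2.89 FPKM in control and 12.3 and 12.6 in differentiation (limma adjusted p = 1.66e-04). Nanos2, another such marker, was low in all libraries, with 0.756 and 0.713 FPKM in control and 0.360 and 0.566 in differentiation.

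Markers of somatic testis cells were present too. Fibroblast and peritubular markers were lower for 14 of 15 (538 to 543 against 193 to 208 FPKM summed), macrophage markers for 10 of 13, with 1 higher, Aif1 (74.7 to 78.3 against 22.3 to 23.5), and endothelial markers for 2 of 5, with 0 higher (16.6 to 17.0 against 9.04 to 9.31). Of 5 tested markers of Leydig cells, which make much cholesterol, 3 were lower and 1 was higher (43.2 to 44.4 against 24.8 to 25.5 FPKM summed). Cyp11a1, the first enzyme of steroid hormone synthesis, had 16.8 and 16.4 FPKM in control and 2.60 and 2.30 in differentiation, while Star rose (9.89 and 10.1 against 17.3 and 17.0). Sertoli markers were higher for 6 of 12 and lower for 3 (155 to 158 against 169 to 183 FPKM summed), and spermatid markers were higher for 4 of 7 (7.05 to 8.78 against 18.6 to 19.3). No listed marker in the table was at 0 in all libraries, and the part of these cell types in the changes of the 30 genes was not tested.

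Depth was similar across the 4 libraries, with totals of 18434284 to 20862243 fragments recovered from FPKM and annotated length. Features resembling ribosomal RNA took 20.8% to 22.6% of fragments in control and 17.7% to 18.3% in differentiation. Across features, Spearman's rho was 0.970 within each group and 0.857 to 0.861 between groups, a description over features that are not independent replicates.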

How the data were processed

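Total RNA depleted of ribosomal RNA was sequenced from 2 control and 2 differentiation libraries. Per the submitters' processing notes, HISAT2 and the GRCm38 build were used. No source used here names the annotation, how fragments were counted or whether strand was used. The deposited values, 1 for each feature in each library, are FPKM computed by the authors, whose table also holds their own log2 fold change, p-value and adjusted p from a test not named there.

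FPKM was taken as log2(FPKM + 1) for features with a mean of at least 0.5 and tested with limma 3.58.1 (intensity trend, R 4.3.3), differentiation minus control, with Benjamini-Hochberg adjustment over 23138 features. The fit left 2 residual degrees of freedom, moderated by a prior of 2.14. Exonic lengths of GENCODE M21 (GRCm38, 31536 of 31600 features matched) turned FPKM into fragments, of which 96.2% under 300 were whole within 0.05 in each library. These served for depth and for limma-voom as an alternative. Near-identical copies (at least 95% over 300 bases) were sought with BLAST+ 2.17.0. Beyond the copies named in the results, processed pseudogenes passed this rule for Acaca, Fdft1, Elovl6 and Idi1. Their longest stretches were 6118, 1249, 805 and 684 bases, so the assignment of reads to these genes is uncertain as well. The script was tested on simulated data. Every gene of the set is named in pathway order. From each other list up to 3 called genes with the largest change and a group mean of at least 5 FPKM were eligible for naming, or all where a count was 5 or fewer. The genes, lists and tests were chosen with earlier results of these data known.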

Additional observations from a re-analysis of the deposited data

How the results depend on the processing

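No gene of the 30 changed sign under the 14 alternatives run, and 15 of the 23 called genes kept their call and direction under all of them. The count lower was 19, and requiring a change beyond 1.2-fold left 12 lower and 3 higher. Hmgcs1, Mvk, Fdft1, Lss, Nsdhl, Insig1, Stard4 and Scd2 lost the call there. Among all features tested, 4409 were higher and 3572 lower with that requirement (6848 and 6246 without it). Leaving out 1 library at a time gave 15 to 18 genes lower and 4 higher, and 5094 to 5583 features higher and 4344 to 4634 lower. Mvk, Lss, Nsdhl and Stard4 lost the call without at least 1 library, and the cause was not tested. Quantile normalization gave 21 lower and 3 higher, and median centring 20 and 4. Over all features these scalings leaned lower too, with 7601 lower and 5792 higher, and 7266 lower and 6064 higher, so that 43.2% and 45.5% of calls were higher against 52.3% without them. Limma-voom on fragments gave 22 lower and 5 higher, with 7041 and 7421 over all features.

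The labels do not say whether equal replicate numbers pair the libraries. Deviations of equally numbered libraries correlated at -4.08e-04 across features, so no shared deviation was visible, but this cannot exclude pairing by design. With the replicate number as a block, 18 genes were lower and 4 higher, and Lss lost its call (limma adjusted p = 0.0537). Pmvk, Fdps and Ebp rested on 44 to 119 fragments per library, and the size of change that can be called at that depth was not tested.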

Other observations

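Genes of neighbouring lipid pathways, counted in the same way, were called in both directions. Over all features tested, 29.6% were higher and 27.0% lower by the same rule. Glycerolipid synthesis rose in 5 of 14 tested genes and fell in 5, and leaving out a library left 2 or 3 lower. Its largest changes were in Agpat3 (5.85 and 5.93 against 17.0 and 17.3 FPKM, limma adjusted p = 1.53e-04) and Agpat1 (17.6 and 18.2 against 38.4 and 38.6, limma adjusted p = 1.61e-04), acyltransferases that build phosphatidic acid. Fatty acid oxidation rose in 7 of 23 and fell in 7, with 4 higher without control 2 and 4 lower without differentiation 2. Cpt2, the inner carnitine palmitoyltransferase of mitochondria, had 9.93 and 9.15 FPKM in control and 23.2 and 23.9 in differentiation (limma adjusted p = 2.82e-04), while the thiolase gene Acaa2 fell from 13.6 and 14.4 to 7.99 and 7.13 (limma adjusted p = 0.00152).

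The genes that support lipogenesis rose in 6 of 18 and fell in 5, with 2 or 3 lower without control 1, control 2 or differentiation 2. Oxsm and Mcat, which serve the separate fatty acid synthesis of mitochondria, both rose (1.13 and 1.27 against 5.43 and 6.15 FPKM, and 8.36 and 9.11 against 21.0 and 18.9), whereas Fasn of the cytosolic route fell. The difference in direction between these genes was not itself tested.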
